A study of Mus musculus with 4 samples.

Results

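The GATA factors and their FOG cofactors are 8 genes, the 6 zinc finger transcription factor genes Gata1 to Gata6 and the 2 cofactor genes Zfpm1 (FOG1) and Zfpm2 (FOG2). They were picked by symbol from the 39179 gene identifiers of the deposited table, and all 8 passed the filter on low counts, as did 16722 genes in all. The libraries are bulk RNA sequencing of cardiac progenitor cells made from mouse embryonic stem cells. The stem cell line carries an inducible Gata6, in the DMSO and the compound group alike, and the labels do not say whether it was switched on. The 2 DMSO libraries come from cells kept for 2 days in the solvent DMSO, and the 2 cucurbitacin I libraries from cells kept for 2 days in cucurbitacin I hydrate at 10 µM, which had been a screening hit; it is a triterpenoid from plants that blocks JAK2 and STAT3 activity. Treatment began on day 6 of culture, while the titles give day 8 and the extraction protocol gives day 10. Since the labels name no separate cultures, p-values here reflect nothing beyond the spread of these samples, possibly a technical one.

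GATA factors bind DNA at the core letters GATA through a pair of zinc fingers. In mammals Gata1, Gata2 and Gata3 are best known from blood and lymphoid cells, and Gata4, Gata5 and Gata6 from heart, endoderm and gut, although Gata2 also acts in endothelium and Gata3 in trophoblast, kidney and sympathetic neurons. FOG proteins do not bind GATA sites themselves; they bind the amino-terminal zinc finger of a GATA factor and bring in corepressors, FOG1 above all with Gata1 in red cell and platelet precursors and FOG2 with Gata4 in the heart.

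Total counts ranged from 23759431 to 27069312 per library. Values are given as CPM, which are counts scaled to a common library size with TMM factors, or as CPM per kb of merged exons where genes are compared with each other. A gene was called when edgeR's quasi-likelihood test gave an adjusted p below 0.05 over all 16722 genes, and this held for 33.4% of them, 19.5% lower and 13.9% higher in cucurbitacin I. The 3259 falls and 2318 rises became 4767 and 1059 with library totals as the scaling, 1461 and 389 without DMSO replicate 1, and 2063 and 1071 without DMSO replicate 2. Of 12 markers of cardiac progenitors and cardiomyocytes, 11 were counted well enough to test; 4 rose (1 without DMSO replicate 1), 3 fell and 4 did not pass. The early mesoderm gene Mesp1 had 1 count in each DMSO library and 0 in the cucurbitacin I libraries. The cardiac troponin T gene Tnnt2, 1 of the 4 that rose, lay at 1877 and 2566 CPM in DMSO and at 5611 and 7358 CPM in cucurbitacin I. The 3 that fell were Isl1, Kdr and Pdgfra, with log2 fold changes of -2.29, -3.09 and -2.46.

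Of the 8 GATA and FOG genes, 5 fell, 0 rose and 3 did not pass. The falls numbered 3 without DMSO replicate 1 and 3 without DMSO replicate 2, and 1 gene, Zfpm2, rose without DMSO replicate 2 or cucurbitacin I replicate 1. The share that fell was 62.5%, beside 19.5% of all genes tested, and the median log2 fold change was -0.81, beside -0.01 over all genes tested. The blood and lymphoid factors Gata1, Gata2 and Gata3 fell together with Gata5 and with Zfpm1, while Gata4 and Gata6, the most abundant GATA transcripts, and Zfpm2 did not pass. The groups' CPM did not overlap for 6 of the 8, where 73.0% of all genes tested did not overlap. For a single gene, the exact permutation test of this 2 by 2 design gives a p of 0.33 at the lowest, and each call therefore leans on a variance estimate pooled over genes by edgeR. In bulk RNA, fewer cells of a type and less RNA per cell cannot be told apart.

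**Figure D1:**
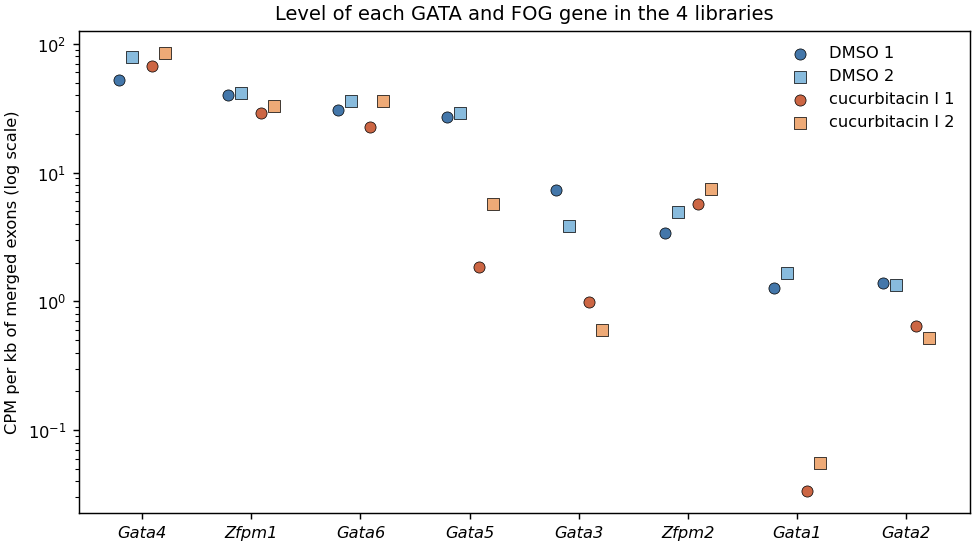
Level of each GATA and FOG gene in CPM per kb of merged exons (vertical log axis), with 1 point for each of the 4 libraries and genes ordered by their DMSO mean. Gata4 stands highest in both groups, and the cucurbitacin I points of Gata5, Gata3, Gata1 and Gata2 lie below their DMSO points.

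Per kb, the DMSO libraries were led by Gata4 at 65.3 ± 18.9 CPM per kb (SD, n = 2). Zfpm1 followed at 40.6 ± 0.869 CPM per kb, Gata6 at 33.3 ± 4.13 and Gata5 at 28.1 ± 1.40 CPM per kb (SD, n = 2). Far below came Gata3 at 5.56 ± 2.40, Zfpm2 at 4.17 ± 1.09, Gata1 at 1.47 ± 0.273 and Gata2 at 1.37 ± 0.0440 CPM per kb (SD, n = 2). In this order the libraries of Gata3 and Zfpm2 overlapped, as did those of Gata1 and Gata2, and the other neighbours in the order did not. Gata4 exceeded 96.5% of the tested genes on this scale and Gata2 exceeded 24.5%.

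In cucurbitacin I the order was Gata4 at 76.1 ± 12.0 CPM per kb, Zfpm1 at 30.9 ± 2.52, Gata6 at 29.3 ± 9.57, Zfpm2 at 6.57 ± 1.19, Gata5 at 3.78 ± 2.75, Gata3 at 0.795 ± 0.274, Gata2 at 0.582 ± 0.0893 and Gata1 at 0.0446 ± 0.0155 CPM per kb (SD, n = 2). Zfpm1 and Gata6 overlapped there, and Gata3 and Gata2 overlapped, so that Gata5 had moved from the fourth place to the fifth, below Zfpm2. The place of Gata6 depends on the length used, because its merged exons span 6.508 kb and its longest transcript 3.784 kb. With the longest transcript, Gata6 stood at 57.3 CPM per kb in DMSO, above Zfpm1 at 41.9.

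**Figure D2:**
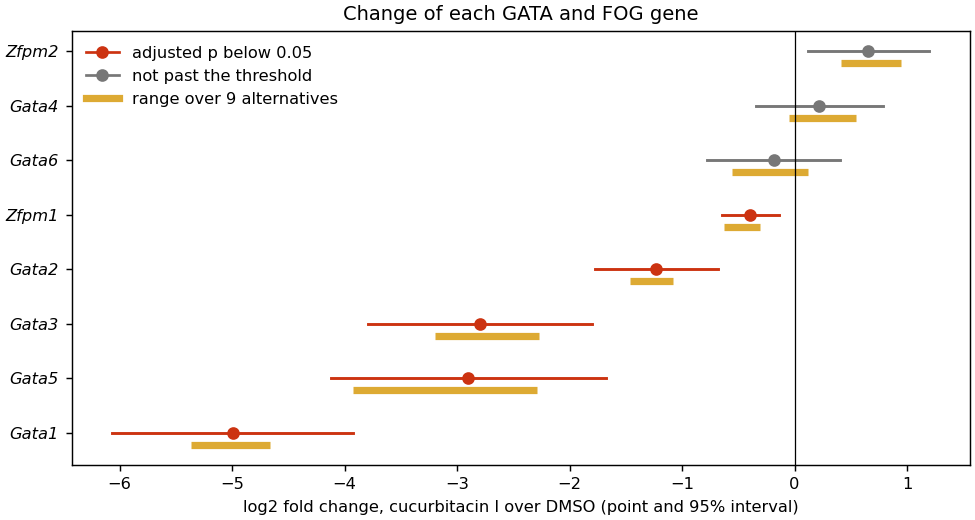
Log2 fold change of cucurbitacin I over DMSO for each gene, with its 95% interval from the edgeR fit and, as a thick bar, the range over 9 alternative analyses. Gata1, Gata5, Gata3, Gata2 and Zfpm1 lie below 0 throughout, and the intervals of Gata4 and Gata6 span 0.

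Gata1 (ENSMUSG00000031162, mm10 chromosome X, 7959260 to 7978071, minus strand), the factor needed for red cells and platelets, had the largest change of the 8. Its counts were 93 and 110 in DMSO but 2 and 3 in cucurbitacin I, or 3.11 and 4.05 CPM against 0.0820 and 0.136 CPM. Both DMSO libraries were far above both cucurbitacin I libraries. The ratio of scaled counts, DMSO over cucurbitacin I, was 33.1 with an exact 95% counting interval of 14.0 to 103, which covers counting error only. The fitted log2 fold change was -4.99 (SE 0.43, edgeR adjusted p = 0.00264), and it passed in all 9 alternatives (adjusted p from 1.168e-08 to 0.0128).

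Gata2 (ENSMUSG00000015053, chromosome 6, 88193891 to 88207030, plus strand) is a factor of blood stem and progenitor cells and of endothelium. It had 226 and 196 counts in DMSO and 85 and 62 in cucurbitacin I. These are 7.55 and 7.22 CPM in DMSO and 3.48 and 2.80 CPM in cucurbitacin I, 2 groups that did not overlap. This is a log2 fold change of -1.23 (SE 0.22, edgeR adjusted p = 0.0131). The call was lost without DMSO replicate 1 (-1.19, adjusted p = 0.0743) and without DMSO replicate 2 (-1.26, 0.0504). Over the 9 alternatives the adjusted p ran from 0.000837 to 0.0743.

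In DMSO, Gata2 and Gata1 were at similar levels per kb, with a Gata2 to Gata1 ratio of 1.1 and 0.805 in the libraries. In cucurbitacin I that ratio was 19.2 and 9.33, though Gata1 rested on 5 counts in all there.

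Gata3 (ENSMUSG00000015619, chromosome 2, 9857078 to 9890034, minus strand), known from T helper cells, trophoblast and kidney, had 864 and 417 counts in DMSO and 96 and 53 in cucurbitacin I. DMSO replicate 1 was 1.88 times as high as DMSO replicate 2, at 28.9 and 15.4 CPM, and both were above cucurbitacin I at 3.93 and 2.40 CPM. The log2 fold change was -2.80 (SE 0.40, edgeR adjusted p = 0.00759), from -3.20 to -2.27 over the 9 alternatives, all of which passed.

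Gata5 (ENSMUSG00000015627, chromosome 2, 180325133 to 180334699, minus strand), a factor of endocardium, heart and gut, was the only member of the Gata4, Gata5 and Gata6 subgroup that passed in the main comparison. It had 2661 and 2591 counts in DMSO and 147 and 415 in cucurbitacin I, which are 88.9 and 95.4 CPM against 6.02 and 18.8 CPM. The DMSO libraries were close to each other, while cucurbitacin I replicate 2 was 3.11 times as high as replicate 1, and the groups stayed well apart. Its log2 fold change was -2.90 (SE 0.49, edgeR adjusted p = 0.0114). It was -3.93 without cucurbitacin I replicate 2 and -2.29 without cucurbitacin I replicate 1, and it passed in all 9 alternatives.

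The table of starts from RefSeq (GRCm38.p6, the assembly of mm10) holds windows from 250 bases before to 50 bases after the start for 5 of the 8 genes, Gata1, Gata2 (2 starts), Gata3, Gata5 and Zfpm1. The windows of Gata1, Gata3 and Gata5 are shown because these had the largest falls and because transcripts from the other strand overlap the last 2. They are Gata1 at chrX:7967861-7968160, Gata3 at chr2:9878551-9878850 and Gata5 at chr2:180334630-180334929, all on the minus strand, and capitals mark the letters GATA on either strand. A minus-strand gene begins at its higher coordinate, which is 7978071 for Gata1 and 9890034 for Gata3. The windows of Gata1 and Gata3 therefore lie at starts inside the gene, while that of Gata5 holds the outer end at 180334699.
Gata1: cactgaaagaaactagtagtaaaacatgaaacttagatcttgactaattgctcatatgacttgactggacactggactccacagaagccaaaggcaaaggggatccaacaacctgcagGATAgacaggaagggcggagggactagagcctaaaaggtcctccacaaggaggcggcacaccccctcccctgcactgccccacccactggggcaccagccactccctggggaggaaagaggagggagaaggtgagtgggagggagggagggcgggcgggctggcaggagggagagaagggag
Gata3: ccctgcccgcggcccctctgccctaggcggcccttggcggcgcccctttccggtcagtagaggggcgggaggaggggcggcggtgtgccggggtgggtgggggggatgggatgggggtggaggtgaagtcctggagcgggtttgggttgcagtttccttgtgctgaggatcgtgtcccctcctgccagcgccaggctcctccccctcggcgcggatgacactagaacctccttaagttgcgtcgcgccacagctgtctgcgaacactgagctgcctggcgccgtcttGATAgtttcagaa
Gata5: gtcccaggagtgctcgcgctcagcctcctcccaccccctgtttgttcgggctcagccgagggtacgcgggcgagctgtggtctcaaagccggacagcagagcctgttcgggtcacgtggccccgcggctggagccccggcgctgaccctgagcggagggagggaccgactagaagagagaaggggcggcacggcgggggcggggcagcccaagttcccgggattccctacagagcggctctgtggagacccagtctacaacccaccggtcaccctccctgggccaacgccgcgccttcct
The letters GATA, read on both strands, occurred once in the Gata1 window and once in that of Gata3, and in 57.9% of all 32851 windows of the table. The 6-letter forms, with A or T before and A or G after those letters, were found in the Gata3 window alone among the 6 windows of these genes and in 29.8% of all windows. The STAT motif TTCNNNGAA was in 0 of the 6 and in 8.30% of all. The Gata1 window holds 4 CpG dinucleotides and a GC content of 57.3%, whereas the Gata3, Gata5, Zfpm1 and both Gata2 windows hold 22 to 37 CpG and 67.3 to 73.7% GC. These matches describe letters in the windows.

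Gata4 (ENSMUSG00000021944, chromosome 14, 63198922 to 63271692, minus strand), a core heart factor that acts with Nkx2-5 and Tbx5, had 6077 and 8345 counts in DMSO and 6439 and 7306 in cucurbitacin I. On the CPM scale it lay at 203 and 307 in DMSO and at 264 and 330 in cucurbitacin I, and the groups overlapped. The log2 fold change was 0.22 (SE 0.23, edgeR adjusted p = 0.488) with a 95% interval of -0.35 to 0.78, and it passed in 0 of 9 alternatives. DMSO replicate 1 was the lowest library, and without it the sign turned (-0.05), as it did with library totals as the scaling (-0.01).

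Gata6 (ENSMUSG00000005836, chromosome 18, 11052510 to 11085635, plus strand), a factor of primitive endoderm and heart and the inducible gene of the line, had 5915 and 6402 counts in DMSO and 3576 and 5193 in cucurbitacin I. Its levels were 198 and 236 CPM in DMSO and 147 and 235 CPM in cucurbitacin I, with replicate 1 of the latter as the lowest library and replicate 2 inside the DMSO range. The log2 fold change was -0.19 (SE 0.24, edgeR adjusted p = 0.574), with a 95% interval of -0.78 to 0.41. Without cucurbitacin I replicate 2 it was -0.56 and passed (adjusted p = 0.0438), and without cucurbitacin I replicate 1 the sign turned (0.12, adjusted p = 0.619); the adjusted p over the 9 alternatives ran from 0.0438 to 0.916. The count table does not separate transcripts of the inducible copy from those of the chromosome 18 gene, so the copies cannot be told apart here.

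The makeup of the GATA pool was compared within each library, as each gene's share of the summed GATA level per kb. Gata4 made up 43.5% and 52.2% in DMSO and 72.2% and 66.3% in cucurbitacin I. Gata5 made up 22.7% and 19.3% in DMSO and 1.96% and 4.49% in cucurbitacin I. Gata6 made up 25.4% and 24.0% in DMSO and 24.1% and 28.3% in cucurbitacin I, where the groups overlapped. With the longest transcript as length, the mean share of Gata6 was 33.5% in DMSO and 34.7% in cucurbitacin I. That of Gata4 was then 43.4% in DMSO and 61.4% in cucurbitacin I. Gata3 made up 6.08% and 2.56% in DMSO and 1.06% and 0.472% in cucurbitacin I. The groups did not overlap for Gata4, Gata5 and Gata3, nor for the small shares of Gata1 and Gata2, and shares were not tested. The summed level itself was 119 and 151 CPM per kb in DMSO and 93.6 and 128 in cucurbitacin I, and the groups overlapped. Shares within a library are tied to each other, and the CPM of Gata4 itself overlapped between the groups.

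The ratio of Gata4 to Gata5 per kb was 1.92 and 2.70 in DMSO and 36.8 and 14.8 in cucurbitacin I. That of Gata4 to Gata6 was 1.71 and 2.17 in DMSO and 3.0 and 2.35 in cucurbitacin I, higher in both treated libraries. These ratios were not tested, and their size depends on the length used. Per kb of the longest transcript, the means of Gata4 and Gata6 were 75.0 and 57.3 CPM in DMSO and 87.3 and 50.4 CPM in cucurbitacin I. The Gata6 share in cucurbitacin I minus that in DMSO was 1.45 points and turned to -0.661 points without cucurbitacin I replicate 2.

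**Figure D3:**
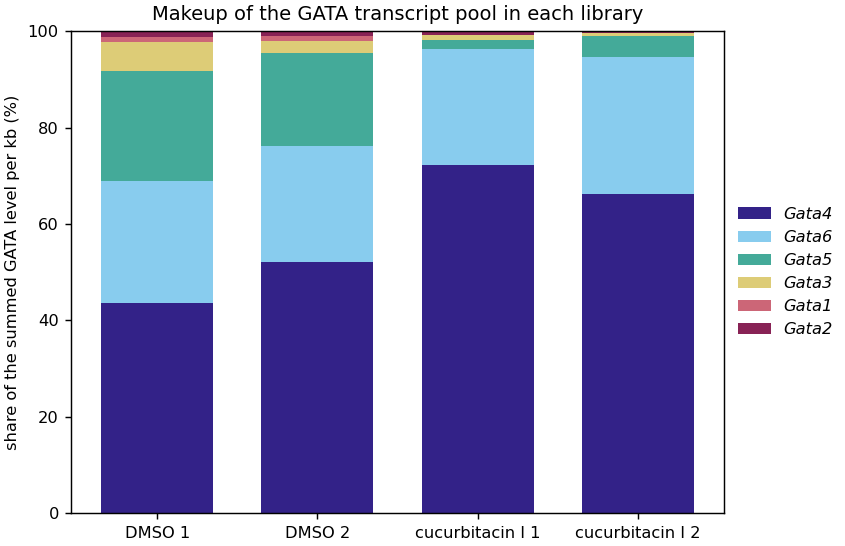
Share of the summed GATA level per kb (percent, vertical axis) held by each of the 6 GATA genes in each of the 4 libraries (bars). The Gata5 segment shrinks from 22.7% and 19.3% in DMSO to 1.96% and 4.49% in cucurbitacin I, while that of Gata4 widens. The CPM of Gata4 itself overlapped between the groups.

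Zfpm1 (ENSMUSG00000049577, chromosome 8, 122282141 to 122337251, plus strand), the FOG1 gene, had 4190 and 3920 counts in DMSO and 2492 and 2536 in cucurbitacin I. These are 140.0 and 144 CPM against 102 and 115 CPM, 2 tight groups that did not overlap. The log2 fold change was -0.39 (SE 0.10, edgeR adjusted p = 0.0343), the smallest of the 5 falls. The call was lost without DMSO replicate 1 (adjusted p = 0.131), without DMSO replicate 2 (0.139) and without cucurbitacin I replicate 1 (0.129); over all 9 alternatives the adjusted p ran from 0.00910 to 0.139. In proportion Gata1, its partner, fell further, and the Zfpm1 to Gata1 ratio per kb was 31.4 and 24.8 in DMSO and 867 and 588 in cucurbitacin I. The ratios in cucurbitacin I rest on 5 Gata1 counts in all, so their size is uncertain.

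Zfpm2 (ENSMUSG00000022306, chromosome 15, 40655042 to 41104592, plus strand), the FOG2 gene, had 972 and 1280 counts in DMSO and 1334 and 1564 in cucurbitacin I. At 32.5 and 47.1 CPM in DMSO and 54.7 and 70.7 CPM in cucurbitacin I, both treated libraries were higher than both controls. The log2 fold change was 0.66 (SE 0.22, edgeR adjusted p = 0.0660), and it did not pass. It passed in 5 of 9 alternatives, among them DESeq2 (adjusted p = 0.0318) and the fits without DMSO replicate 2 (0.0382) or without cucurbitacin I replicate 1 (0.0347), with values from 0.41 to 0.95 over the 9. In the authors' deposited table the adjusted p of Zfpm2 was 0.0609.

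The FOG genes were not at equal levels. Zfpm1 exceeded Zfpm2 per kb by 11.7 and 8.34 times in DMSO and by 5.09 and 4.41 times in cucurbitacin I. The size of this gap depends on the length used: per kb of the longest transcript, the means were 41.9 CPM for Zfpm1 and 6.87 CPM for Zfpm2 in DMSO, and 32.0 and 10.8 CPM in cucurbitacin I. Ratios between genes shift with the length by the same factor in every library. The Zfpm2 to Gata4 ratio per kb was 0.0655 and 0.0628 in DMSO and 0.0848 and 0.0876 in cucurbitacin I, with little spread in either group.

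Genes that overlap a member, or lie within 10 kb of it, numbered 9, of which 6 overlapped and 7 could be tested. The sources used here do not give the strand setting of the counting, so reads of a member and of a gene on its other strand may be mixed. Gm14318, an antisense gene that spans the Gata5 start (chromosome 2, 180332857 to 180340732), had 203 and 194 counts in DMSO and 10 and 39 in cucurbitacin I. It fell by 2.69 on the log2 scale (SE 0.58, edgeR adjusted p = 0.0208), with the same order of libraries as Gata5 and 6.80 to 9.40% of its counts.

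Around Gata3, the antisense gene Gm13256, which covers the start window shown above, had 40 and 24 counts in DMSO and 9 and 3 in cucurbitacin I (log2 fold change -2.10, edgeR adjusted p = 0.0344). The overlapping genes 4930412O13Rik (72 and 35 against 3 and 4 counts) and 9230102O04Rik (28 and 14 against 4 and 1 counts) fell as well, by 3.58 and 2.72 on the log2 scale (edgeR adjusted p = 0.00894 and 0.0317). While 4930412O13Rik is on the other strand, 9230102O04Rik is on the same strand as Gata3. A strand setting would not separate reads of 9230102O04Rik from those of Gata3. In all 3, DMSO replicate 1 was above DMSO replicate 2, as for Gata3.

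The lincRNA 1010001N08Rik runs from the other strand of the Gata6 start and overlaps the gene by 58 bases. It was at 21.6 and 29.0 CPM in DMSO and 13.2 and 30.5 CPM in cucurbitacin I (log2 fold change -0.22, edgeR adjusted p = 0.699). Cucurbitacin I replicate 1 was the lowest library for both, and the lincRNA held 8.98 to 13% as many counts as Gata6. The genes near the others were Neil2, 5381 bp from Gata4, which did not pass (-0.22, adjusted p = 0.586), Gm22, 9495 bp from Zfpm1, which did not pass (-0.64, 0.237), Psmb6-ps near Gata1 with at most 2 counts a library, and Gm20388 across Zfpm1 with 0 counts.

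**Figure D4:**
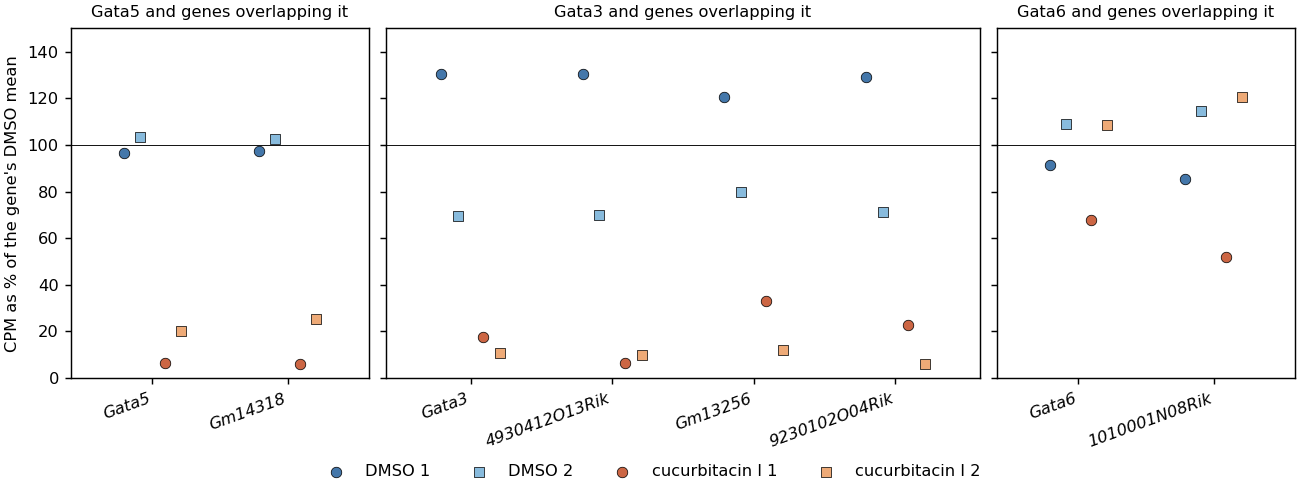
CPM in each library as a percentage of the gene's own DMSO mean (vertical axis, line at 100), for Gata5, Gata3 and Gata6 and the genes that overlap them. Gm14318 and the 3 genes at Gata3 are low in both cucurbitacin I libraries, and the lincRNA at Gata6 is low in cucurbitacin I replicate 1 alone.

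By the distance of centred log2 CPM over the 4 libraries, among 10608 other genes (10609 for Gata1) averaging at least 5 CPM, the closest to Gata1 were the pleckstrin gene Plek (distance 0.23) and Lrrc17 (0.40). Closest to Gata3 were the cathepsin gene Ctsh (0.11) and Gyltl1b (0.22), and to Gata5 the semaphorin gene Sema5b (0.25) and Bcl11a (0.27). These 3 members had at most 1 gene within a distance of 0.2. Gata2 lay next to the DNA polymerase epsilon gene Pole (0.05) and the syndecan gene Sdc2 (0.06), with 24 genes within 0.2. Gata4 lay next to Rgs8 (0.08) and the cell cycle inhibitor gene Cdkn1c (0.08), Gata6 next to Sema6d (0.05) and Csrnp3 (0.07), and Zfpm2 next to Pygb and Fam49a (both 0.05). Zfpm1 had 598 genes within 0.2, led by Lsmd1 (0.02) and Abhd8 (0.03). Likeness over 4 libraries is a weak measure. The distance is not scaled to the size of change or the spread of replicates, so the counts within 0.2 cannot be compared between members.

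Gene lists around the factors were described by counts and medians. No list was tested as a set, and 19.5% of all genes tested fell and 13.9% rose. Of 28 listed erythroid and megakaryocyte genes, many of them known targets of Gata1, 26 were in the table and 25 were tested; 22 fell, 0 rose and 3 did not pass, with a median log2 fold change of -3.96. The integrin gene Itga2b fell by 3.20 on the log2 scale, the heme synthesis gene Alas2 by 4.57, and the platelet factor gene Pf4 went from 1147 counts in DMSO to 2 in cucurbitacin I, a ratio of scaled counts of 467 (exact 95% counting interval 129 to 3864). The erythropoietin receptor gene Epor did not pass (0.29, adjusted p = 0.33). The summed level of the list was 774 and 1052 CPM in DMSO and 75.9 and 135 CPM in cucurbitacin I, and Hbb-bt, Rhag and Gp9 had 0 counts in both treated libraries. The part of a change in these cells in the fall of Gata1 was not tested.

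Of 22 blood progenitor and endothelial genes, the setting of Gata2, 21 were tested and 15 fell, 0 rose and 6 did not pass (median -2.14). Mecom, a zinc finger factor of blood stem cells, fell by 4.50, the VEGF receptor gene Kdr by 3.09 and the stem cell factor receptor gene Kit by 2.14 on the log2 scale. Tal1 and Lmo2, whose proteins sit in a complex with GATA factors in blood cells, fell by 3.98 and 3.54 on the log2 scale (edgeR adjusted p = 0.00396 and 0.00518), and Runx1 did not pass (-0.08, adjusted p = 0.899). The other genes that did not pass were Esam, Cdh5, Erg, Flt1 and Tek, with log2 fold changes from -1.60 (Esam) to -1.01 (Tek). The summed level was 348 and 350.0 CPM in DMSO and 58.6 and 62.4 CPM in cucurbitacin I. Emcn (19 and 21 counts in DMSO) and Etv2 (3 and 3) were at 0 in the treated libraries. The part of these cells in the fall of Gata2 was not tested.

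For Gata3, 13 trophoblast and 10 T and innate lymphoid genes were listed. Only 6 of the trophoblast genes were tested, and 4 fell and 0 rose (median -1.94); the keratin gene Krt7 fell by 2.15 on the log2 scale, and the falls numbered 0 without DMSO replicate 1 and 2 without DMSO replicate 2 or cucurbitacin I replicate 2. Their summed level was 327 and 146 CPM in DMSO and 283 and 80.3 CPM in cucurbitacin I, mostly from Krt8 and Krt18, and the placental genes Prl3d1 and Prl2c2 were at 0 in every library. Cdx2 (11 and 5 counts in DMSO), Tpbpa (2 and 1) and Gcm1 (1 and 2) were at 0 in both treated libraries. Of the lymphoid genes 4 were tested and 3 fell (median -2.82). Cd3g was at 0 in every library. Cd3d, Il7r and Il1rl1 were at 0 in the treated ones, but had only 0 to 2 counts in each DMSO library. The summed level was 24.2 and 18.5 CPM in DMSO and 16.6 and 12.5 CPM in cucurbitacin I. Whether such cells were present, and their part in the fall of Gata3, was not tested.

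**Figure D5:**
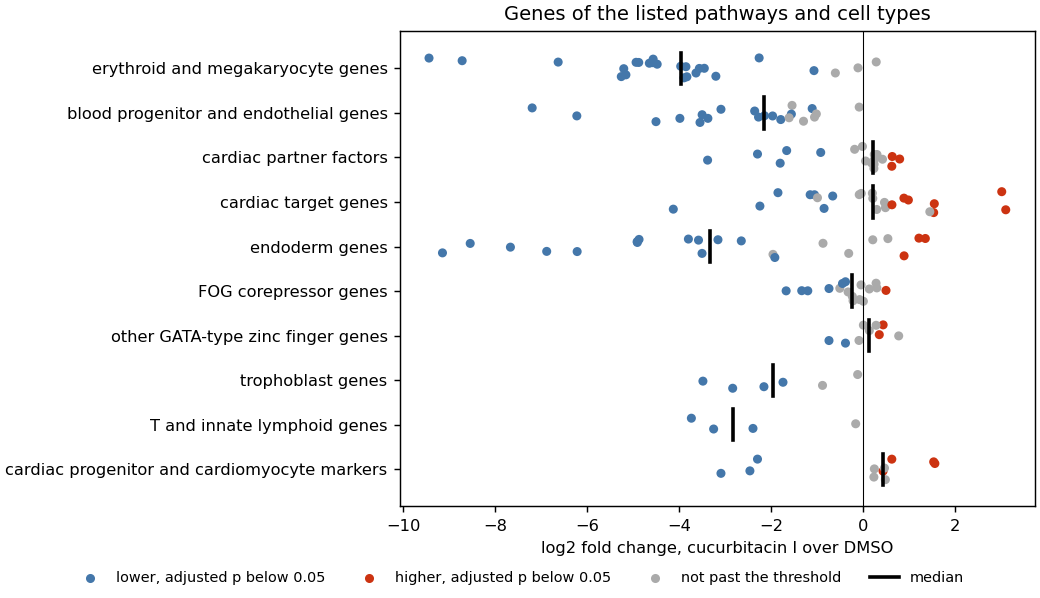
Log2 fold change of cucurbitacin I over DMSO for every tested gene of the 10 lists (points), with each list's median as a black bar. The erythroid and megakaryocyte list has a median of -3.96 and the cardiac partner list one of 0.22.

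Of 24 listed endoderm genes, a setting of Gata4 and Gata6 in yolk sac and gut, 22 were tested. Of these, 14 fell, 3 rose and 5 did not pass (median -3.32). Alpha-fetoprotein, Afp, fell by 7.67, transthyretin, Ttr, by 6.22 and fibrinogen, Fgb, by 6.88 on the log2 scale. The genes that rose, Col4a1, Col4a2 and Lamb1, encode basement membrane proteins that many cell types make, and they raised the summed level from 2667 and 3416 CPM in DMSO to 5340 and 3737 CPM in cucurbitacin I. Apoa4 and Fga were at 0 in both treated libraries, and the rises numbered 0 without DMSO replicate 1 and 1 without DMSO replicate 2. The 5 list genes that did not pass were the factor gene Sox7 (-1.95, edgeR adjusted p = 0.0984), Cubn (-0.86), Lama1 (-0.30), Dab2 (0.22) and Lamc1 (0.55). The factors Foxa2 (-3.50), Hnf4a (-4.87) and Sox17 (-2.64) fell on the log2 scale, whereas Gata4 and Gata6 did not pass. A difference between those falls and the Gata4 and Gata6 values was not tested.

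The cardiac partners of Gata4 were mixed. Of 18, all tested, 3 rose, 5 fell and 10 did not pass (median 0.22), where 13.9% of all genes tested rose and 19.5% fell. Hand1 fell by 3.38, Isl1 by 2.29 and Nfatc4 by 1.66 on the log2 scale, and Mef2c rose by 0.63. Nkx2-5 (0.25, edgeR adjusted p = 0.207), Tbx5 (0.24, 0.635) and Tbx20 (0.19, 0.696) did not pass. Without DMSO replicate 1 the list had 0 rises and 3 falls.

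Of 24 cardiac genes listed as targets of Gata4 or Gata6, 23 were tested, and 7 rose, 7 fell and 9 did not pass (median 0.22). Over all genes tested, the shares were 13.9% that rose and 19.5% that fell. The troponin C gene Tnnc1 rose by 1.56 on the log2 scale. Bmp4, a signal for heart and blood mesoderm, fell by 2.24, the cell cycle kinase gene Cdk4 by 0.84 and Vegfa by 1.05. The natriuretic peptide gene Nppa was at 14.3 and 33.4 CPM in DMSO and at 248 and 140 CPM in cucurbitacin I. Nppa, Nppb, Tnnt2, Tnni3, Slc8a1 and Plxna2 were the other genes that rose, and Wnt7b, Chrm2, Adora1 and Ccnd2 the others that fell. Without DMSO replicate 1, 2 rose and 3 fell, and without DMSO replicate 2, 7 rose and 4 fell.

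Among 17 genes whose proteins FOG factors recruit or bind, chiefly the NuRD and CtBP corepressors, 1 rose, 6 fell and 10 did not pass (median -0.23). Beside this, 13.9% of all genes tested rose and 19.5% fell. The NuRD helicase gene Chd3 fell by 1.33, while its counterpart Chd4 did not pass (-0.07, edgeR adjusted p = 0.676). Nr2f2, a nuclear receptor that binds FOG2, fell by 1.67, Tacc3, a mitotic spindle gene whose protein binds FOG1, by 1.20, and the methyl-CpG binding gene Mbd2 rose by 0.51 on the log2 scale. With library totals as the scaling, Mbd2 lost its call and 10 genes fell. Without DMSO replicate 1, 0 rose and 3 fell, and without DMSO replicate 2, 0 rose.

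Genes of 9 other proteins with a GATA-type zinc finger, 5 of which are also in the corepressor list, gave 2 rises and 2 falls. All genes tested gave 13.9% rises and 19.5% falls. Mta1 fell by 0.73 and Mta2 by 0.38 on the log2 scale, Gatad1 rose by 0.44 and Rere by 0.36, and 5 did not pass, among them Trps1, an atypical GATA repressor, at -0.08 (edgeR adjusted p = 0.574). Leaving out any 1 library left at most 1 rise and at most 1 fall in that list.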

How the data were processed

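Total RNA was sequenced with a TruSeq kit, per the labels' protocols. STAR 2.3.0e, HTSeq 0.6.0 and build mm10 are named in the submitters' processing notes. Neither the annotation release nor the strand setting is given in the sources used here. Whole-number counts for each gene were deposited by the authors. They also deposited a normalized signal (not used here) and their own log2 fold change, its standard error and statistic (each a score) and p-value, under DESeq2 column names per the file headers. Of the authors' own results, only the adjusted p of Zfpm2 is printed.

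Of 43374 lines, 4195 repeated a gene and were left out, and 27 symbols stored as dates were restored from the gene identifier. Where a symbol had more than 1 identifier, that with most counts was used. Titles of the samples gave the groups. Testing used edgeR 4.0.16 (R 4.3.3) on genes kept by filterByExpr at a minimum count of 10, with TMM factors, glmQLFit and a 2-sided glmQLFTest without a block, with Benjamini-Hochberg adjustment over 16722 genes and a threshold of 0.05. Each SE was obtained from the size of the log2 fold change and its F statistic, as their quotient with F under a square root. The fit had 2 residual and 3.5 prior degrees of freedom, from which the 95% intervals come. Exonic lengths are from GENCODE M21. The fit was tested on simulated data. Alternatives were DESeq2 1.42.0, other scalings, no filter, a fit blocked on replicate number, omission of each library, a threshold of 0.01 and, for shares, the longest transcript.

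The members and the 10 gene lists were chosen with earlier results of these data known. Named genes are the 8 members, genes within 10 kb of them, of each list the called members averaging at least 5 CPM with the lowest adjusted p (3 at most in the commoner direction, 1 at most in the opposite one), and the 2 genes nearest to each member. In lists with as many rises as falls (cardiac targets and other GATA-type genes), falls were treated as the commoner direction. Other list genes named were chosen after their values were seen.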

Additional observations from a re-analysis of the deposited data

How the results depend on the processing

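Gata1, Gata3 and Gata5 kept direction and call in all 9 alternative fits, and the Gata2, Zfpm1 and Zfpm2 directions held in all 9. Scaling by library totals made the log2 fold change of Gata4 -0.0077, and with 1 library left out it ran from -0.0469 (no DMSO replicate 1) to 0.5498. That of Gata6 ran from -0.5594 to 0.1218 with 1 library left out, positive without cucurbitacin I replicate 1. The cause was not tested. Of the members, 1 rose (Zfpm2) with no filter on low counts, with DESeq2 and with the replicate number as a block, and 2 fell at a threshold of 0.01. Leaving out 1 library gave 0 to 1 rises and 3 to 6 falls, the sixth being Gata6 without cucurbitacin I replicate 2, and a group left with 1 library is assumed to vary like the other.

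Over all genes, 2318 rose and 3259 fell. The counts were 1059 and 4767 with library totals, which moved the share of rises among the calls and the all-gene median (-0.24 in place of -0.01), 492 and 1262 at the threshold of 0.01, and 389 to 2109 and 1461 to 3001 with 1 library left out. With the replicate block they were 2660 and 3707; the labels do not say what the numbers share, and same-numbered libraries deviated together with a correlation of 0.24 across genes.

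At the threshold of 0.01, 13 erythroid and megakaryocyte, 9 endoderm, 2 cardiac partner, 2 cardiac target, 3 FOG corepressor, 0 other GATA-type and 0 trophoblast genes fell, and 2 cardiac target, 2 cardiac marker, 0 endoderm, 0 FOG corepressor and 0 other GATA-type genes rose. With library totals 10 FOG corepressor genes fell and 0 rose, and 0 other GATA-type genes rose; with no filter 1 other GATA-type gene fell. With 1 library left out, the ranges were 0 to 3 rises and 3 to 5 falls for cardiac partners, 2 to 10 and 3 to 7 for cardiac targets, 0 to 4 rises for endoderm, 0 to 1 and 3 to 5 for FOG corepressors, 0 to 1 and 0 to 1 for other GATA-type genes, 0 to 4 falls for trophoblast and 1 to 3 rises for cardiac markers. The cause was not tested, beyond the smaller number of libraries.

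With the longest transcript as length, the share of Gata5 differed between groups by -14.1 points in place of -17.8. The difference in the Gata6 share ran from -0.661 to 3.56 points with 1 library left out. Depth limits Gata1, which had 5 counts in cucurbitacin I.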
